A study of Mus musculus with 60 samples.

Results

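The mammary gland was profiled on 7 of the 60 arrays of a mouse series that measured messenger RNA of genes related to glycans, glycan-binding proteins, cytokines and growth factors on a custom Affymetrix array. Its members are all arrays labelled mammary glands, and their mean was set against the mean of the means of the other 7 tissues, with lines and genotypes pooled within a tissue. After 4 arrays that stood apart from their labelled tissue were left out, 56 arrays entered the comparison, 49 of them from other tissues. The mammary glands came from 5 double-knockout (DKO) mice lacking B4galnt1 and B4galnt2, 2 females (N5891 and N5892) and 3 males (N5893, N5894 and N5895), and from 2 wild-type (WT) mice of the same line, the male N3738 and the female N9686. The enzyme made from B4galnt1 extends glycolipids with N-acetylgalactosamine, and that from B4galnt2 puts the same sugar on sialylated chains. The same line, DKO and WT, gave kidney (5 and 4 arrays), the arrays labelled thymus (5 and 1 used) and testes (3 and 3, all male). St6galnac2 knockout and WT mice gave thyroid (3 and 3), lymph node (3 and 3), intestine (2 and 2 used) and brain (3 and 3 used), and C57 WT mice without a sex label gave 3 further arrays each for intestine and brain. St6galnac2 makes a sialyltransferase of O-linked protein glycans. All mice were labelled healthy, and age is not given in the sources used here. The labels name no promoter or cell type to which the knockouts are limited.

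The mouse mammary gland is a branching epithelial duct tree embedded in a fat pad, which also holds fibroblasts, vessels, nerves and many macrophages, and in the inguinal pad a lymph node. In females the ducts grow at puberty under oestrogen and growth hormone, in part through amphiregulin and insulin-like growth factor 1, whereas males keep at most a small duct remnant. Macrophages of such connective tissue carry galactose- and mannose-binding C-type lectins, and fibroblasts lay down collagen with small leucine-rich proteoglycans. In RNA of a whole organ, fewer cells of a type and less RNA per cell cannot be told apart.

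The label was checked against markers first. Clec10a, Mgl2, Lum and Ccl8, the genes given as marks of this tissue, were all called higher in mammary gland, but they were picked from earlier results of these data and are no independent check. Of 21 listed markers of mammary epithelium 7 were measured, none of them a keratin or a milk protein, and their mean level lay between 4.48 and 6.35 log2 in the 7 mammary gland arrays, against tissue means between 4.30 in brain and 5.97 in intestine. Areg alone of these 7 was called higher than the mean of the other tissues (by 2.14, list median -0.01), and 2 were without the arrays above the Prol1 limit described next. Only 1 of 15 adipocyte markers and none of 9 muscle markers had a named probe set in the table used. The mean of 7 macrophage and dendritic cell markers lay between 8.16 and 9.62 in mammary gland arrays. The highest other tissue means were 7.66 in thyroid and 7.66 in lymph node. For 7 fibroblast markers the range was 8.39 to 9.51 in mammary gland, against 9.10 in the arrays labelled thymus, 8.89 in thyroid and 6.24 in brain. The macrophage list includes Clec10a and Mgl2, and the fibroblast list includes Lum, so neither list is a fully independent check. B cell markers lay between 4.75 and 5.13 and T cell markers between 3.92 and 4.32 in mammary gland, against 9.05 and 7.94 in lymph node, so no mammary gland array showed lymphocyte markers near the lymph node level.

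Several arrays stand apart or go against their labels. The 6 used arrays labelled thymus had a T cell marker mean of 4.36, and Ccr9, the chemokine receptor of developing thymocytes, averaged 3.86 there, close to 3.66 in mammary gland and below 7.16 in lymph node. They are therefore called the arrays labelled thymus throughout. A lymph node array of animal 9094 correlated at 0.529 with the other lymph node arrays and at 0.480 with mammary gland. Prol1, a gene of salivary and lacrimal glands and the mark by which 2 further arrays labelled thymus were left out, exceeded the same limit of 8 log2 on 4 of the 7 mammary gland arrays, N5892, N5895, N3738 and N9686, and on 1 lymph node array. Counts and values without the 5 arrays above the limit are given beside the results that move with them. The glands then left are N5891, N5893 and N5894, all DKO. Each mammary gland array correlated with the mean of the 6 others at 0.638 (N5895) to 0.845 (N5893) across 908 genes, each centred on its average over tissues, and with its nearest other tissue at 0.197 to 0.387. These correlations are across genes, which are not independent replicates.

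The probe sets that represent B4galnt1 and B4galnt2 did not follow the genotype. B4galnt2 had 4.39, 8.21, 3.78, 3.74 and 8.53 log2 in DKO glands N5891 to N5895, against 3.93 and 8.09 in WT glands N3738 and N9686. B4galnt1 had 6.83, 7.93, 5.85, 4.83 and 7.91 in the DKO glands, against 5.67 and 6.38 in the WT glands. For both genes the 2 genotypes overlapped, with DKO minus WT differences of 0.75 ± 0.80 for B4galnt1 and -0.09 ± 1.71 for B4galnt2 (SE, limma adjusted p = 0.796 and 0.987). Where the probes lie relative to the deleted part is not given in the sources used here, so these values do not check the genotype labels.

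Set against the 7 other tissues on average, the mammary gland was higher in most measured markers of macrophages and fibroblasts and in several monocyte chemokines and growth factors, and lower in genes such as Chga, Ccl21a, Hk1 and Ccl25. A probe set was called at a limma adjusted p under 0.05 with a difference of at least 1 log2 unit, which is a 2-fold difference. Of 1246 probe sets 105 (8.43%) were called higher and 34 (2.73%) lower, with a median difference of -0.06 over all of them. Counted with 1 probe set per gene, 88 of 908 genes (9.69%) were higher and 28 (3.08%) lower. The counts in gene lists below are to be read against these shares. Centring the arrays on their medians gave 94 higher and 52 lower, so the share of falls depends on the scaling. In the tissues of the B4galnt1/B4galnt2 line alone the counts were 129 and 50, and without the arrays labelled thymus they were 115 and 53. Without the 5 arrays above the Prol1 limit they were 127 and 48, and 98 of the 105 rises and 31 of the 34 falls were shared.

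**Figure D1:**
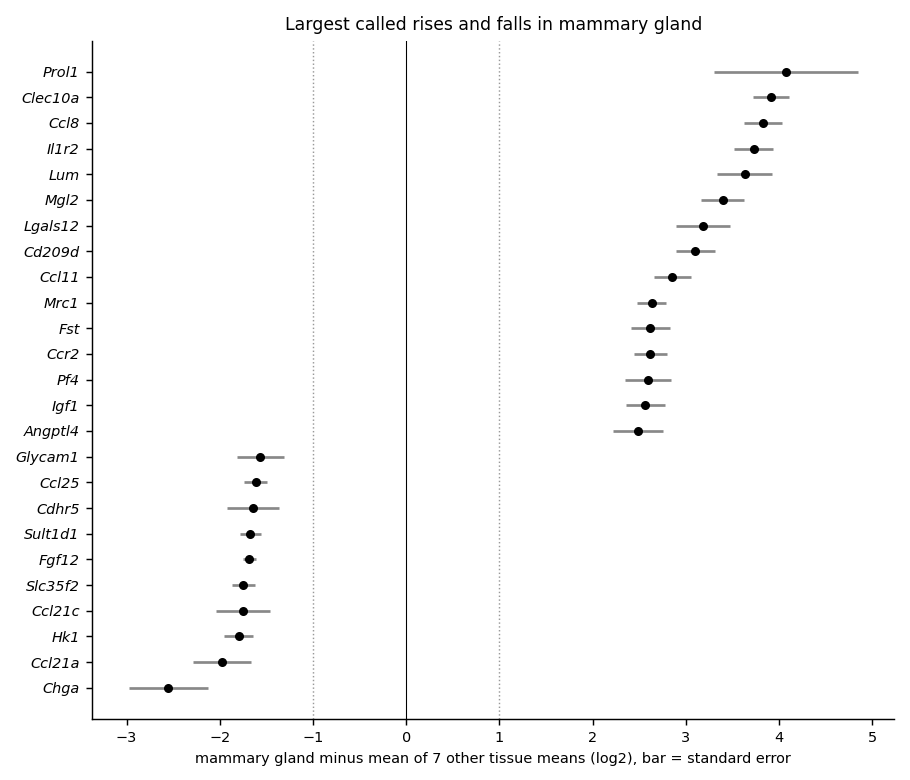
Differences (log2, x axis) between the mean of 7 mammary gland arrays and the mean of the other 7 tissue means for the 15 largest called rises and the 10 largest called falls (y axis), with points as estimates, bars as standard errors and dotted lines at the limits of -1 and 1. The rises run from 2.49 for Angptl4 to 4.08 for Prol1, whose bar is the widest, and the falls from -1.56 for Glycam1 to -2.55 for Chga.

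The galactose-binding lectins of macrophages were among the largest rises. Clec10a, the macrophage galactose lectin, had 10.51, 9.87, 10.59, 11.08 and 10.38 log2 in DKO glands N5891 to N5895 and 11.48 and 10.64 in WT glands N3738 and N9686. The other tissues had a mean of 6.74, and the highest of their 49 arrays had 9.45. Every mammary gland array thus lay above every other array, with lymph node (8.98 ± 0.40, SD, n = 6) and thyroid (8.49 ± 0.36, SD, n = 6) next. The difference was 3.91 ± 0.20 (SE, limma adjusted p = 2.72e-23), and 1.67 against the nearest tissue. Mgl2, its close relative, had 9.93, 8.92, 9.43, 9.92 and 8.89 in the DKO glands and 10.54 and 9.51 in the WT glands. The other tissues averaged 6.20, and their highest array, lymph node 9094, had 8.75. Mgl2 also did not overlap any other array, although the gap was small, and its difference was 3.40 ± 0.23 (SE, limma adjusted p = 4.93e-18), with 1.08 against thyroid. Besides these genes only 1 probe set, which has no symbol in the table used, had all mammary gland arrays above all others, which makes 3 of 1246 (0.241%), and none had them all below.

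The 2 lectin genes are neighbours on chromosome 11, next to the hepatic lectin genes Asgr1 and Asgr2, and both probe sets carry a suffix for probes shared with other transcripts, so their signals cannot be fully told apart. The RefSeq promoter window of Mgl2 (GRCm38.p6, chr11:70130107-70130356, plus strand, 250 bases up to the start site) is shown because this gene rose in mammary gland against each tissue, with that of Il1r2 (chr1:40085843-40086092, plus strand), a rise of the same kind. Capitals mark GAGGAA or its reverse complement TTCCTC, core letters of sites of the myeloid ETS factor PU.1. Of the 9 genes called higher than in every other tissue, 6 had a window in the table.
Mgl2: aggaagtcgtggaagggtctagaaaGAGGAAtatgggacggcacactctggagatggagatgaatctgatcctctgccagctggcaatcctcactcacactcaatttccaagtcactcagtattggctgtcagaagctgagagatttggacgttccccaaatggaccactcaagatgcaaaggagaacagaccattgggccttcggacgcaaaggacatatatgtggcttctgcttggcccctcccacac
Il1r2: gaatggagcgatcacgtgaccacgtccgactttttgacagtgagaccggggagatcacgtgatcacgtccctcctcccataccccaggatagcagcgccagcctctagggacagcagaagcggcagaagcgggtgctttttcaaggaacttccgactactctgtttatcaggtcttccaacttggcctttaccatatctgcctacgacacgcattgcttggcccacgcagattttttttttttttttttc
Mgl2 holds 1 match, on the plus strand, 225 bases before the start site, and Il1r2 holds none of either strand. The window of Ccr2, also called higher than in every tissue, was searched in the same way, is not printed and holds none either. GAGGAA occurs on either strand in 23.3% of the 32851 mouse promoter windows of this length, so a match is a description only, and its absence says only that these letters are not in this window.

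**Figure D2:**
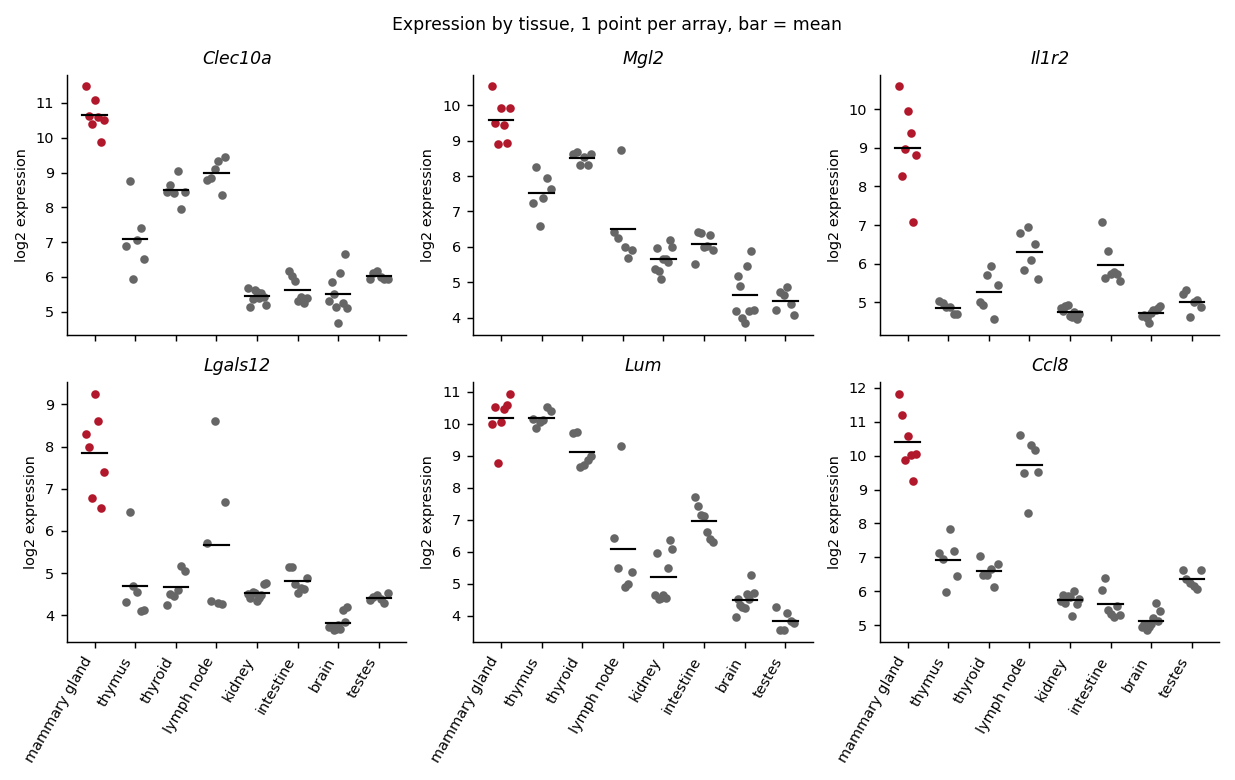
Deposited log2 expression (y axis) of 6 genes by tissue (x axis, mammary gland in red), with 1 point per array and a bar at the tissue mean. All 7 mammary gland arrays lie above all others for Clec10a and Mgl2, whereas Lum overlaps the arrays labelled thymus and Ccl8 overlaps lymph node.

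The C-type lectins as a group moved unevenly. Of 34 measured members 11 were called higher and 1 lower, with a median difference of 0.08, against 9.69% and 3.08% of all genes. The 34 include Clec10a and Mgl2, and also lectins of other cells, such as the fibroblast marker Clec3b and the hepatic Asgr1 and Asgr2. Mrc1, the mannose receptor, averaged 10.17 ± 0.59 (SD, n = 7) and was higher by 2.63. Cd209d, a relative of the dendritic cell lectin DC-SIGN, averaged 8.69 ± 0.98 and was higher by 3.10, and Clec4a3 was higher by 2.30. Clec2h, a ligand of natural killer cell receptors, fell by 1.17 on the log2 scale, with -0.39 without the intestine arrays. Of the 7 measured markers of macrophages and dendritic cells, which include Clec10a and Mgl2, 6 were called higher and none lower (median 2.09). Adgre1, a macrophage surface receptor, rose by 1.94 and Csf1r, the receptor of macrophage growth factor, by 1.08. Siglec1, the sialic acid lectin of lymph node macrophages, was not called, at 0.32. None of 9 siglecs and none of 13 natural killer receptors was called.

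The chemokine group of monocytes and eosinophils held 6 rises, and that of lymphocyte homing 1 rise and 3 falls. Ccl8, a monocyte chemokine, had 10.05, 9.27, 10.03, 10.60 and 9.88 log2 in the DKO glands and 11.83 and 11.21 in the WT glands, against a mean of 6.58 in the other tissues. It was higher by 3.82 (limma adjusted p = 4.97e-22) and was called against 6 of the 7 tissues. Against lymph node (9.74 ± 0.82, SD, n = 6), whose arrays overlapped, the difference was 0.67. Of 13 measured genes of this group 6 were called higher and none lower (median 0.76), against 9.69% and 3.08% of all genes. Ccl11, eotaxin, rose by 2.86, Ccl7 by 1.78, Ccl9 by 1.65, and the receptor Ccr2 by 2.62. Ccr2, the receptor that brings monocytes out of the blood, had 8.46, 7.82, 8.34, 8.29 and 6.91 in the DKO glands and 9.40 and 9.27 in the WT glands, and was higher than in every tissue by at least 1.26. Ccl2, Ccl7, Ccl11, Ccl12 and Ccl8 lie side by side on chromosome 11. Of 15 lymphocyte homing genes 1 was higher and 3 were lower (median -0.54): Cxcl12 rose by 1.09, Ccl25, which guides cells to gut and thymus, fell by 1.62, and Ccl21a and Ccl21c fell by 1.98 and 1.75. In the B4galnt1/B4galnt2 line alone these 3 falls were -0.82, -0.94 and -0.75, under the limit of 1, and Ccl25 was at -0.72 without intestine. Cxcl12 was at 0.85 without testes and under the limit of 1 in several other alternatives, such as 0.96 after a second quantile normalization. A second probe set of Cxcl12 was higher by 0.68. Without the arrays above the Prol1 limit 5 homing genes were lower. None of 14 chemokines of T and natural killer cells was called, and without the arrays above the Prol1 limit 1 was higher, Cxcl9 by 1.14, named after its value was seen.

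Il1r2, the decoy receptor that binds interleukin 1 without signalling, stood farthest above its nearest tissue among the 9 genes called higher than in all 7. It had 8.80, 7.07, 9.38, 9.94 and 8.96 log2 in the DKO glands and 10.59 and 8.26 in the WT glands. The other tissue means ran from 4.72 in brain to 6.30 in lymph node, and the highest other array, an intestine one, had 7.08. Only gland N5892 lay below that array. The difference was 3.73 ± 0.21 (SE, limma adjusted p = 1.64e-21), and 2.70 against lymph node. Il1r1, the signalling receptor, was higher by 1.01, and by 0.94 after centring, under the limit of 1. Of 54 measured interleukins and their receptors 3 were called higher and none lower (median -0.06), against 9.69% and 3.08% of all genes. Without the arrays above the Prol1 limit 5 were higher. For Il1rl1 the probe sets disagreed, as given below.

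Lgals12, a galectin of fat cells, had 7.40, 6.55, 8.61, 9.25 and 6.77 log2 in the DKO glands and 8.31 and 8.0 in the WT glands. The other tissue means ran from 3.82 in brain to 5.65 in lymph node, where array 9094 reached 8.60 and overlapped the glands. Lgals12 was higher by 3.18 ± 0.29 (SE, limma adjusted p = 1.84e-13) and by at least 2.19 against each tissue. Angptl4, a lipoprotein lipase inhibitor made by fat cells and the only adipocyte marker measured, ranged from 9.76 to 11.59, with a difference of 2.49, and overlapped lymph node (8.86 to 11.31). Of 10 galectins 3 were higher and 1 was lower (median 0.42), against 9.69% and 3.08% of all genes. Lgals1 rose by 2.21 and Lgals3 by 1.43. Lgals2, a gut galectin, fell by 1.22, with -0.22 without the intestine arrays and -0.52 in the B4galnt1/B4galnt2 line alone. Without the arrays above the Prol1 limit 5 galectins were called higher.

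Most fibroblast markers rose, and their mean of 9.07 log2 in mammary gland was close to 9.10 in the arrays labelled thymus and 8.89 in thyroid. Lum, which encodes the collagen-binding proteoglycan lumican, had 10.94, 10.58, 10.45, 10.07 and 8.77 log2 in the DKO glands and 9.98 and 10.53 in the WT glands, against a mean of 6.56 in the other tissues. Its difference was 3.63 ± 0.29 (SE, limma adjusted p = 1.92e-15), and it was called against 6 of 7 tissues. Against the arrays labelled thymus (10.19 ± 0.24, SD, n = 6) the difference was 0.00 ± 0.40 (SE, limma adjusted p = 0.997), and the arrays overlapped. Dcn, decorin, which neighbours Lum on chromosome 10, averaged 12.57 ± 0.25 (SD, n = 7) and was higher by 2.17. Of 7 fibroblast markers 5 were called higher and none lower (median 1.76), against 9.69% and 3.08% of all genes. Besides Lum, which was picked from these data, and Dcn, the calls were Clec3b, Col14a1 and Pdgfra. Fmod, fibromodulin, was at -0.56 and was not called. Of 10 endothelial markers 2 rose, Cd34 by 1.87 and Mcam by 1.28, against 9.69% of all genes. The mean level of the 10 was 6.68 log2 in mammary gland, 6.68 in kidney and 7.58 in the arrays labelled thymus.

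**Figure D3:**
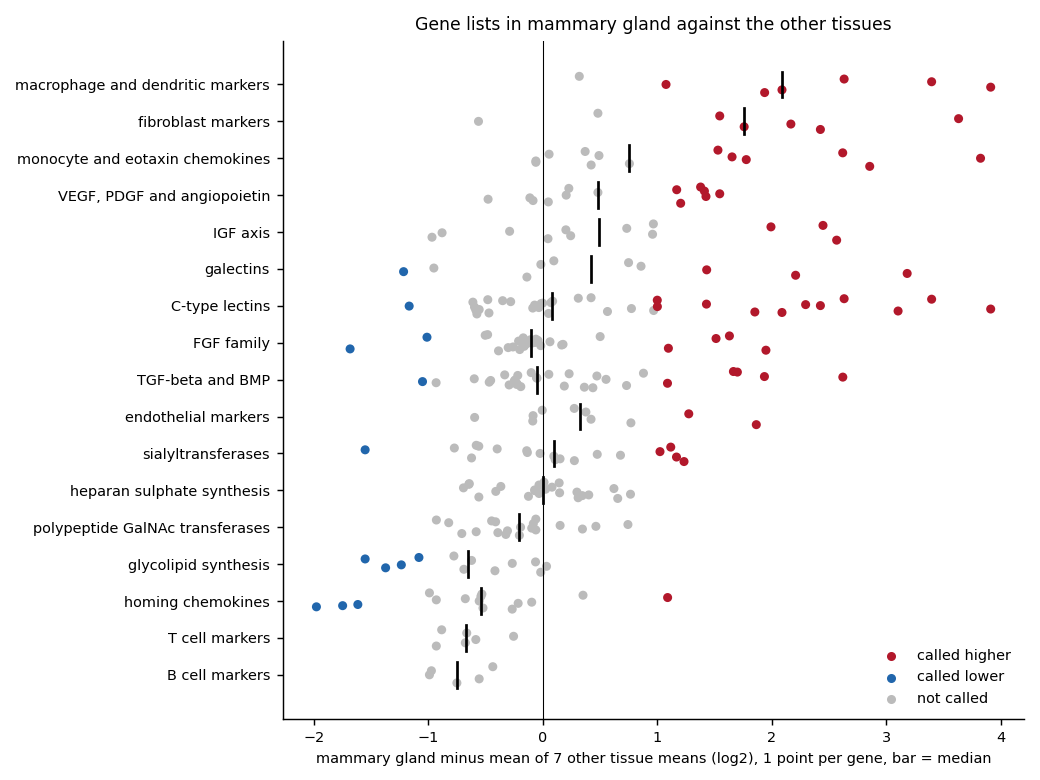
Difference (log2, x axis) between mammary gland and the mean of the other 7 tissue means for the measured genes of 17 gene lists (y axis), 1 point per gene, red for called higher, blue for called lower, grey for not called, with a bar at the list median. Macrophage markers have their median at 2.09 and fibroblast markers at 1.76, and heparan sulfate synthesis has its median at 0.01 with no call.

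Fst, follistatin, which binds and inhibits activin, had 8.73, 7.06, 8.29, 7.70 and 6.84 log2 in the DKO glands and 7.92 and 7.91 in the WT glands, and was higher by 2.62 against the mean and by at least 1.78 against each tissue. Fgf10, a mesenchymal growth factor that acts on epithelial Fgfr2, was even across glands, with a range of 7.04 to 7.46 over the 7 glands and a difference of 1.95. Lymph node array 9094, at 7.95, exceeded them, while the other tissue means lay between 4.71 and 5.70. Fgfr2 rose by 1.63, with 10.72, 10.45 and 10.05 in females N5891, N5892 and N9686. Males N5893, N5894, N5895 and N3738 had 9.24, 7.15, 8.95 and 7.20, and it was not called between the sexes. With WT arrays alone its difference was 0.89, under the limit of 1. Of 26 genes of the fibroblast growth factor family 4 were higher and 2 lower (median -0.10), against 9.69% and 3.08% of all genes, the falls being Fgf12 by 1.68 and Fgf9 by 1.01. Igf1 rose by 2.57, Igfbp6 by 2.45 and Igfbp5 by 1.99, the 3 calls among 12 genes of the insulin-like growth factor axis (median 0.49). Without the arrays above the Prol1 limit 6 of the 12 were called higher. In the TGF-beta and BMP group 5 of 30 genes were higher and 1 lower (median -0.05), and in the VEGF and PDGF group 6 of 13 were higher and none lower (median 0.48), among them Pdgfra by 1.55, Pdgfc by 1.43 and Vegfa by 1.41, the last at 0.85 without testes. Tgfbr2 is uncertain, since its representing probe set was higher by 1.70 and a second one by 0.01.

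Of 1246 probe sets 14 (1.12%) were called higher in mammary gland than in each of the other 7 tissues, and none lower than in each. All 7 pairwise comparisons share the mammary gland arrays. Of the 14, 4 have no symbol, 1 is a second probe set of Il1rl1 and 9 represent a gene. Il1rl1 is uncertain, since this second probe set was higher by 1.79 against the mean and its representing one was at -0.16. The 9 genes were, by the smallest pairwise difference, Il1r2 (2.70), Prol1 (2.62), Lgals12 (2.19), Fst (1.78), Clec10a (1.67), Fgf10 (1.53), Ccr2 (1.26), Sult1a1 (1.19) and Mgl2 (1.08). Sult1a1, a sulfotransferase of phenols, averaged 9.91 ± 0.72 (SD, n = 7), and lymph node array 9094 reached 10.17. The count was 15 without lymph node array 9094, 22 without the arrays labelled thymus, 22 without lymph node and 40 in the tissues of the B4galnt1/B4galnt2 line alone.

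Prol1 belongs to these 9 genes through 4 glands and through the arrays left out. It had 2.52, 9.79, 2.54, 2.61 and 12.47 log2 in the DKO glands and 9.74 and 9.74 in the WT glands, against a mean of 2.98 in the other tissues. The glands fell into 2 sets, with N5891, N5893 and N5894 at the level of most other arrays. The difference was 4.08 on the log2 scale and -0.24 without the 5 arrays above the limit. The 2 arrays labelled thymus that were left out for this gene had 13.41 and 13.51, so the choice of arrays sets part of the difference, and it is given as a description. With all arrays kept, mammary gland exceeded the arrays labelled thymus by 1.78 (limma adjusted p = 0.426), so Prol1 is not higher than in every tissue then. B4galnt2 was at 8.21, 8.53 and 8.09 in N5892, N5895 and N9686 and between 3.74 and 4.39 in the other 4 glands. The part of salivary tissue in the results was not tested. The differences of the named rises without these arrays were 3.98 for Clec10a, 4.11 for Il1r2, 3.76 for Lgals12, 3.94 for Lum and 3.66 for Ccl8.

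Among genes of glycan synthesis and breakdown, the glycolipid group held 4 falls and the sialyltransferases 4 rises. None of 24 heparan sulfate genes, none of 19 polypeptide N-acetylgalactosaminyltransferases and none of 22 lysosomal glycosidases was called, with medians of 0.01, -0.20 and 0.08. Without the arrays above the Prol1 limit 1 heparan sulfate gene was higher, Hs3st6 by 1.03, and 2 of the polypeptide enzymes were lower, Galnt6 and Galntl5 (the last by 1.26), named after their values were seen. Of 12 glycolipid genes 4 were lower and none was higher (median -0.66), against 3.08% and 9.69% of all genes. Ugcg, which makes glucosylceramide, fell by 1.08, B4galt5, which makes lactosylceramide, by 1.37, St8sia1, the GD3 synthase, by 1.55 and Gal3st1, the sulfatide sulfotransferase, by 1.24. In the B4galnt1/B4galnt2 line alone Ugcg was at -0.20 (limma adjusted p = 0.241), without the arrays above the Prol1 limit at -0.71 and without intestine at -0.79. Gal3st1 was at -0.97 without intestine, and B4galt5 was not called with WT arrays alone (-0.85, limma adjusted p = 0.0913). Of 19 sialyltransferases 4 were higher and 1 was lower (median 0.10), and 3 were higher without the arrays above the Prol1 limit. St3gal1 rose by 1.23, St8sia4, a polysialyltransferase, by 1.12 and St6galnac5 by 1.02. St8sia4 was under the limit of 1 without testes (0.71), kidney (0.91) or gland N3738 (0.98), and with KO and DKO arrays alone (0.87). St3gal6 rose by 1.17, but it had 10.78, 10.76 and 9.90 log2 in N5892, N5895 and N9686 and 7.26 to 8.58 in the others, and without the arrays above the Prol1 limit its difference was 0.07 (limma adjusted p = 0.816). B4galnt1 was called lower without them, by 1.34 on the log2 scale, and all 3 glands left are DKO. Mgat3, which adds the bisecting N-acetylglucosamine, fell by 1.05, and by 0.80 on the log2 scale in the B4galnt1/B4galnt2 line alone. Gfpt2, which opens the hexosamine pathway, rose by 1.51.

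The largest falls were Chga, Ccl21a and Hk1. Chga, a granule protein of endocrine cells, had 5.09, 5.04, 4.86, 5.15 and 4.86 log2 in the DKO glands and 5.11 and 4.79 in the WT glands, against a mean of 7.54 in the other tissues, and fell by 2.55 (limma adjusted p = 1.29e-06). In the tissues of the B4galnt1/B4galnt2 line alone its difference was -0.78, under the limit of 1. Hk1, the hexokinase of brain, fell by 1.80, Cdhr5, a brush border cadherin, by 1.64, and Sult1d1 by 1.67. Sult1d1 was at -0.99 without intestine and -0.95 without kidney, and Cdhr5 was not called with WT arrays alone (limma adjusted p = 0.209). Glycam1, an L-selectin ligand of lymph node vessels that the lactating gland also makes, ranged from 3.17 to 3.65 in the glands and fell by 1.56, but without the lymph node arrays its difference was -0.43 (limma adjusted p = 0.141). In the tissues of the B4galnt1/B4galnt2 line alone it was -0.31 (limma adjusted p = 0.389).

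Lymph node was the tissue set against the gland for immune genes. Of 1246 probe sets 139 (11.2%) were higher and 111 (8.91%) lower in mammary gland. The 5 largest rises were Igfbp6 (4.28), Lum (4.11), Mgl2 (3.09), Fgfr2 (2.95) and Pf4 (2.79). Igfbp6, an insulin-like growth factor binding protein, lay between 10.30 and 11.61 log2 in mammary gland, against 5.24 to 9.86 in lymph node, with no overlap. Glycam1 differed most in the other direction, at 3.32 ± 0.17 in mammary gland and 11.72 ± 0.84 in lymph node. The falls of Glycam1 by 8.40, Ccl21a by 5.71, the B cell gene Fcrla by 5.55, Ccl21c by 5.41 and Cxcl13, which draws B cells into follicles, by 5.31 concern genes known from lymph node vessels, stroma or B cells. All 10 genes were called in every alternative run of this comparison. None of these was within the same line, since all lymph node arrays came from the St6galnac2 line. Line and tissue thus cannot be told apart here. The same holds against thyroid, intestine and brain, which have no arrays of the B4galnt1/B4galnt2 line.

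Across 908 genes the profile of mammary gland was most like that of the arrays labelled thymus (r = 0.320) and thyroid (r = 0.318), then lymph node (0.0465), kidney (-0.176), intestine (-0.244), testes (-0.333) and brain (-0.342). They are a description across genes centred as above, and all share the mammary gland arrays. Against the arrays labelled thymus 70 probe sets (5.62%) were higher and 51 (4.09%) lower, and against thyroid 117 (9.39%) and 38 (3.05%). Against brain 168 (13.5%) were higher and 185 (14.8%) lower, against intestine 173 (13.9%) and 151 (12.1%), against kidney 135 (10.8%) and 108 (8.67%), and against testes 236 (18.9%) and 110 (8.83%). The median difference over all probe sets lay between -0.08 against testes and 0.11 against intestine. With a second quantile normalization the testes counts were 202 and 176 and the thyroid counts 88 and 67. Against the arrays labelled thymus the largest rises besides Prol1, whose value chose these arrays, were Il1r2 (4.13), Clec10a (3.56), Ccl8 (3.49) and Cd209d (3.35). The largest falls were Fgf12 (5.55 lower), the platelet chemokine Ppbp (4.66 lower), Cd207, the lectin of Langerhans cells (4.19 lower), Pgm5 (4.02 lower) and Igf2 (3.85 lower). Fgf12 had 2.92 ± 0.09 log2 in mammary gland (SD, n = 7) and 8.47 ± 0.28 in the arrays labelled thymus (SD, n = 6), with no overlap.

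Females and males were compared among the 7 glands, 3 against 4, with genotype as a covariate. Of 1246 probe sets 3 (0.241%) were called higher in females and 0 lower, while for 129 the p before adjustment was under 0.05. Areg, amphiregulin, the epidermal growth factor receptor ligand of duct growth, had 10.93, 9.54 and 9.55 log2 in females N5891, N5892 and N9686, against 5.69, 4.0, 3.86 and 4.10 in males N5893, N5894, N5895 and N3738. Dmbt1, a secreted scavenger protein of epithelia, had 7.45, 8.0 and 9.19 in the females, against 4.41, 3.51, 4.44 and 3.80 in the males. Slc35f3, a solute carrier, had 5.57, 5.71 and 6.25 in the females, against 3.97, 3.56, 3.38 and 3.67 in the males. The sexes did not overlap in any of the 3 genes, but these were chosen by p, so this adds no separate evidence. How many of all probe sets separate the sexes in this way was not counted. Female minus male differences were 5.64 ± 0.54, 4.13 ± 0.42 and 2.17 ± 0.19 (SE), each with a limma adjusted p of 0.0199. Muc1, a luminal epithelial mucin, averaged 6.66 ± 0.31 in females and 5.36 ± 0.23 in males (SD) and was not called (limma adjusted p = 0.0567). Sult1e1, the oestrogen sulfotransferase, is named for its large spread. It had 3.38, 3.58 and 4.19 in females, against 4.03, 7.43, 6.49 and 8.24 in males, with overlap, and was not called either. Leaving out N5891, N5892, N5894, N3738 or N9686 left no call, at adjusted p values of 0.0644 to 0.146 for the 3 genes, and without N5895 13 were higher and 5 lower.

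The RefSeq promoter window of Areg (GRCm38.p6, chr5:91139349-91139598, plus strand) is shown because Areg had the largest sex difference. Capitals mark TTCCTC, the reverse complement of GAGGAA, and TATAAA.
Areg: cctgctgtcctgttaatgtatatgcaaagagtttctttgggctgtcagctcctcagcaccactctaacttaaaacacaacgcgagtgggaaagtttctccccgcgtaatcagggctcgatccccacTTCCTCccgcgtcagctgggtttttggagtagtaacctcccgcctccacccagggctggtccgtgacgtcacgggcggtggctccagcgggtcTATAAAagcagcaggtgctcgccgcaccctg
TATAAA begins 31 bases before the start site and TTCCTC lies 124 bases before it. TATAAA occurs on either strand in 12.4% of the mouse windows of this length.

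**Figure D4:**
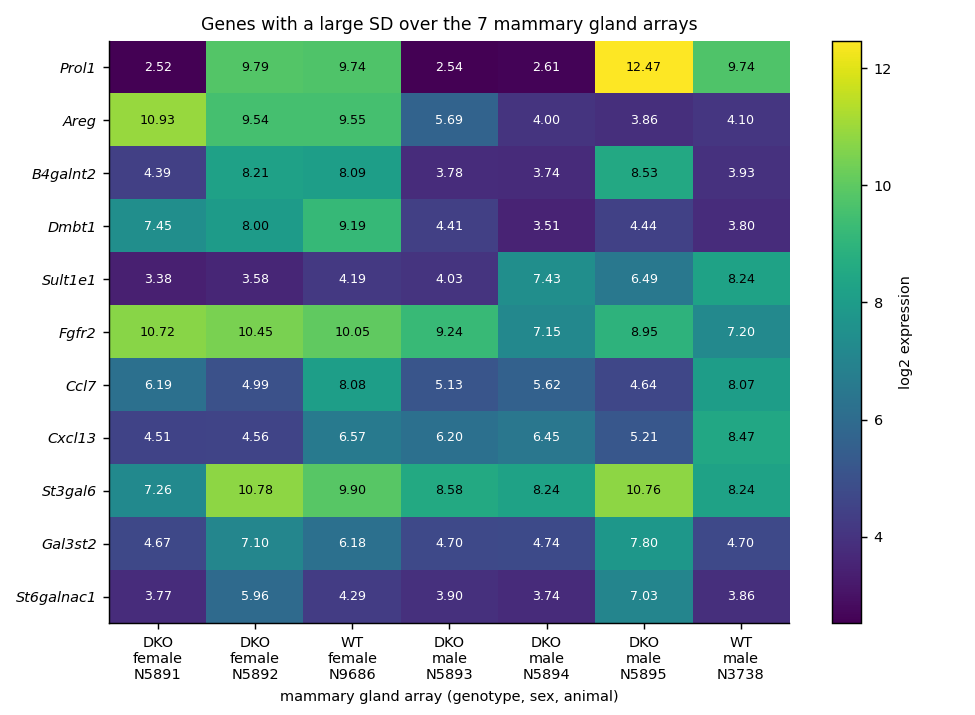
Log2 expression (colour) of 11 genes among those with the largest SD over the 7 mammary gland arrays (rows) in each gland (columns). Areg and Dmbt1 are high in the 3 females, and Prol1 in N5892, N9686, N5895 and N3738.

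The spread among glands was uneven over genes. The SD over the 7 glands was 4.32 for Prol1, 3.09 for Areg, 2.32 for B4galnt2, 2.31 for Dmbt1 and 2.0 for Sult1e1, against 0.51 for Clec10a and 0.16 for Fgf10. Gland N5891 had the highest Lgals7 (9.92, others 6.12 to 7.62) and Ccl27a (10.46, others 6.92 to 7.79), the 2 keratinocyte markers measured. The part of skin in that gland was not tested. Kit, a receptor of mast cells and of luminal progenitors, ranged from 5.71 in N3738 to 8.80 in N5891 and rose by 1.13 against the mean of the other tissues, with 0.89 without N5891, 0.94 without N5892, 0.99 without the arrays above the Prol1 limit and 0.66 with WT arrays alone (limma adjusted p = 0.388).

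DKO and WT glands were compared with sex as a covariate, 5 against 2. Both WT glands were above the Prol1 limit, but of the DKO glands only N5892 and N5895. Genotype and that state thus cannot be fully told apart. No probe set was called in either direction by limma (0 of 1246, 0.0%). Before adjustment 138 of the 1246 had a p under 0.05, which is not a call. No adjusted p was below 0.148. The genes named next were chosen by their p before adjustment, and none was called. Ccl7, a monocyte chemokine, had 6.19, 4.99, 5.13, 5.62 and 4.64 log2 in DKO glands, against 8.07 and 8.08 in WT glands. Its difference was -2.73 ± 0.39 (SE, limma adjusted p = 0.148). Cxcl13 had 4.51, 4.56, 6.20, 6.45 and 5.21 in DKO glands, against 8.47 and 6.57 in WT glands (-2.29, limma adjusted p = 0.148), and Ccl8 differed by -1.61 (limma adjusted p = 0.166). Rab7, a late endosome GTPase, averaged 8.76 ± 0.27 in DKO glands and 7.32 ± 0.39 in WT glands (SD), a difference of 1.40 (limma adjusted p = 0.148). With all tissues of the line in 1 fit, which takes its spread from them all, 10 were higher and 56 lower.

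Kidneys of the same line gave a comparison for the sex difference. The sex term of mammary gland minus that of kidney was called for 18 probe sets (1.44%) upward and 8 (0.642%) downward, with 3 females and 4 males for mammary gland and 3 females and 6 males for kidney. With the animal as a replicate block 24 and 10 were called. The largest upward values were 5.79 for Areg and 4.33 for Dmbt1, and Slc35f3 had 2.35, with kidney differences between -0.21 and -0.16. Cxcl15 (1.66), a lung chemokine, and Cx3cl1 (1.25), fractalkine, were not called between the sexes in the fit of mammary gland alone. Their calls here were lost without N5891, N3738 or N9686 (Cxcl15 also without N5894), at limma adjusted p values of 0.0625 to 0.134. For Chst7, a sulfotransferase of chondroitin chains, mammary glands averaged 5.82 ± 0.30 in females and 6.11 ± 0.45 in males, and kidneys 5.65 ± 0.39 in females and 8.44 ± 0.56 in males (SD). Galns, a lysosomal sulfatase, had 7.07 ± 0.27 in female and 7.08 ± 0.08 in male mammary glands, and 8.25 ± 0.11 in female kidneys, with male kidneys between 9.43 and 10.32. Igf2 had 7.80 ± 0.36 in female and 7.94 ± 0.58 in male mammary glands, and 9.34 ± 0.79 in female and 6.52 ± 0.09 in male kidneys. For these last 3 genes, as for Ugt8a, Chst11 and Ugt2b5, the sexes differed in kidney (limma adjusted p of 0.00202 or less), and their mammary gland differences were between -0.40 and 0.00. Without N5895 49 were called upward and 52 downward, without N5892 32 upward, and without N3738 or N9686 4 downward.

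**Figure D5:**
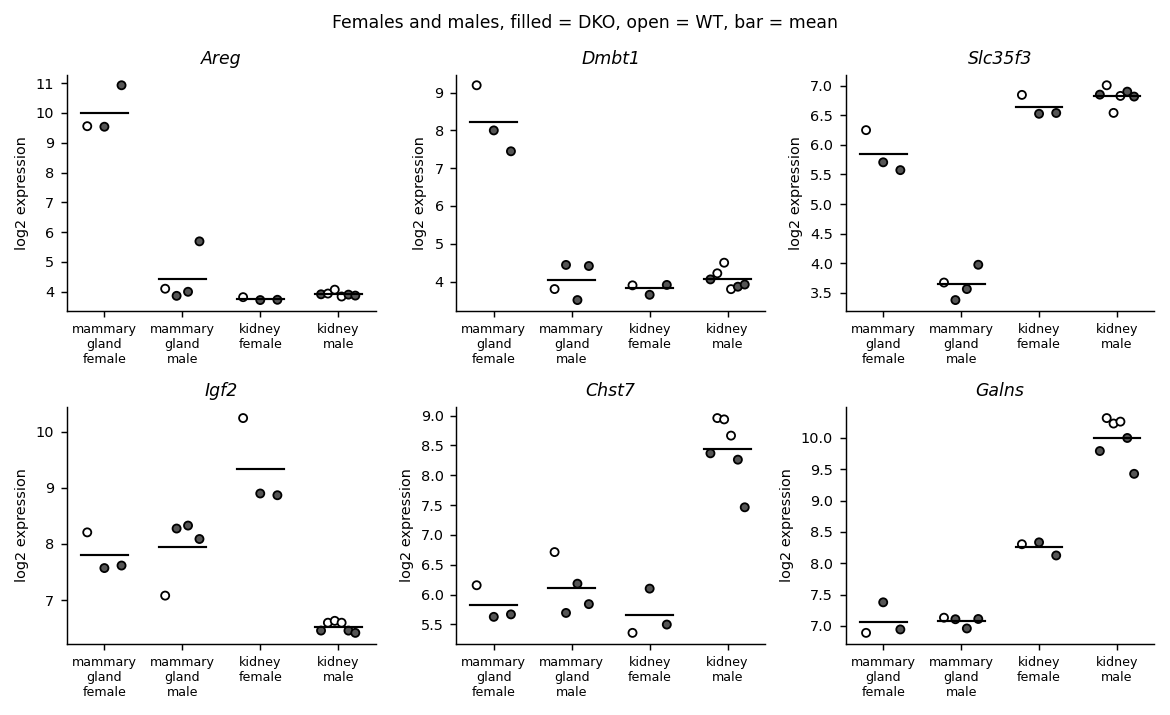
Log2 expression (y axis) of 6 genes in mammary gland and kidney of females and males (x axis), 1 point per array, filled for DKO and open for WT, with a bar at the mean. Areg, Dmbt1 and Slc35f3 differ between the sexes in mammary gland, and Igf2, Chst7 and Galns in kidney.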

How the data were processed

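Per the labels, total RNA was extracted with Trizol and biotin-labelled cRNA was hybridised to a custom Affymetrix array. The deposited values are log2 expression values from RMA (robust multi-array averaging) according to the submitters' processing notes, which give no version. Whether all arrays were normalized together is not given in the sources used here. Values lay between 2.113 and 14.069 and array medians between 5.295 and 5.76, and they were used as deposited. For arrays their number limits the precision.

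Of 1246 probe sets 962 got a gene symbol by matching RefSeq accessions to the gene table provided (908 genes) and 284 did not. A gene with several probe sets is represented by the one with the highest mean. A suffix for probes shared between transcripts marks 217 of those with a symbol.

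By the rule for this comparison, 1 brain array with Fut9 under 6 log2, 1 intestine array with Fut9 over 6 and 2 arrays labelled thymus with Prol1 over 8 were left out. limma 3.58.1 in R 4.3.3 fitted 1 mean per tissue with 1 shared spread. Two-sided p-values were adjusted by Benjamini-Hochberg over all 1246 probe sets. Tissue calls needed an adjusted p under 0.05 and at least 1 log2 unit, and sex, genotype and interaction calls an adjusted p under 0.05. Errors of differences are SE and those of means SD.

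Named genes were the 15 largest rises and 10 largest falls against the mean, all genes called against all 7 tissues, the 5 largest each way against lymph node and the most similar tissue, all called sex and interaction genes (filled up to 8 by p for sex and genotype), 11 of the most variable, the targeted genes, and up to 5 members per described list. Adgre1, Csf1r, Ccl9, Clec4a3, Fgf9 and St6galnac5 fall outside this rule and were named after their values were seen. A few genes that the rule names are not reported here and stay in the counts. Members and lists were chosen with earlier results of these data known.

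The same animals gave mammary gland and kidney, a real pairing given by the animal numbers in the labels. Deviations from group means of 7 such pairs correlated at -0.00625 to 0.258 (median 0.119), against a median of -0.0274 between animals. Alternatives covered the animal block, scaling, probe set choice, genotype, line, sex, array weights and leaving out arrays or tissues. Those without arrays above the Prol1 limit were chosen after seeing the data. The procedure was tested on simulated data. Figures used Python 3.11.15 and matplotlib 3.10.9.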

Additional observations from a re-analysis of the deposited data

Results flagged for a closer look

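Of 44 genes examined over the 7 mammary gland arrays, 2 had 1 array far from the rest, where chance flags about 1 in 20. Ccl21c, a lymphocyte homing chemokine, had 8.92 log2 in gland N5891 and 5.88 to 7.05 in the others. Sult1d1 had 3.85 in N3738 and 2.51 to 2.97 in the others.

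The sex difference of mammary gland differed from that of kidney by the interaction term for 16 genes. The calls of Chst11, Cxcl15, Cx3cl1, Mcoln2, Gdf10, Il10rb and Uxs1 were lost in at least 1 alternative, at adjusted p values such as 0.134 for Chst11 and 0.0594 for Il10rb. The female minus male difference was more positive in mammary gland than in kidney by 5.79 for Areg, 4.33 for Dmbt1 and 2.54 for Ugt8a. Further such values were 2.37 for Chst7, 2.35 for Slc35f3, 1.81 for Chst11 and 1.73 for Ugt2b5. Galns had 1.69, Cxcl15 1.66 and Cx3cl1 1.25. Negative values were -3.02 for Igf2, -1.32 for Mcoln2, -1.15 for Gdf10, -1.11 for Il10rb, -0.88 for Hexa and -0.86 for Uxs1. As given above, the sexes differed in kidney for Ugt8a, Chst7, Chst11, Ugt2b5, Galns and Igf2, with little difference in mammary gland. Gdf10 and Hexa were lower in female than in male mammary glands (7.26 ± 0.23 and 8.15 ± 0.48 for Gdf10, SD), while Mcoln2 was higher in female than in male kidneys (5.98 ± 0.08 and 5.13 ± 0.29, SD).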

How the results depend on the processing

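Against the mean of the other tissues, falls numbered 34, and 52 after centring, 53 without lymph node, 53 without the arrays labelled thymus and 56 without thyroid. Falls against testes moved to 176 and against thyroid to 67 after a second quantile normalization, from 110 and 38. With WT arrays alone, where only 1 array labelled thymus is left and is assumed to vary like the other groups, that tissue gave 39 rises and 30 falls, and thyroid 22 falls. The 14 probe sets above every tissue became 9 with 1 named probe set per gene, 40 in the B4galnt1/B4galnt2 line alone, 22 without lymph node and 22 without the arrays labelled thymus, and the count below every tissue was 1 in that line and 0 to 1 when single glands were left out. Sex calls numbered 0 higher with DKO glands alone, 69 higher and 27 lower with all tissues of the line in 1 fit, and 85 and 22 in that fit without arrays above the Prol1 limit. Leaving out single glands gave 0 to 13 higher and 0 to 5 lower. Genotype calls numbered 1 higher after quantile normalization, 10 higher and 56 lower in the fit of the line, and 0 to 1 higher and 0 to 3 lower without single glands. Interaction calls ranged from 13 to 49 upward and 4 to 52 downward without single glands. The animal as a replicate block gave 103 rises, 34 falls and 14 above every tissue, and changed no call of a named gene. Prol1 was -0.24 (limma adjusted p = 0.641) without arrays above its limit. The cause of these shifts was not tested. The sex and genotype comparisons rest on 2 WT glands and 3 females.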
